A study of Mus musculus with 56 samples.

Results

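The liver genes of SREBP1c-driven lipogenesis were followed as 10 genes (Srebf1, Fasn, Acaca, Acly, Scd1, Elovl6, Me1, Pnpla3, Thrsp and Mlxipl) out of 45513 genes counted in each of 56 mice. They were chosen by symbol, as the transcription factor itself, the factor ChREBP and the enzymes and other lipogenic genes that textbooks place under their control. The rule uses no measured value, but the choice was made with earlier results of these data known. Each symbol matched 1 Ensembl identifier in GENCODE vM21, and all 10 passed the filter on low counts.

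The study asked how BCR-ABL1 tyrosine kinase inhibitors, drugs against chronic myeloid leukemia, act on cardiovascular risk in female APOE*3Leiden.CETP mice. The mice were 9 to 14 weeks old when they entered the study. These mice carry human APOE*3Leiden, APOC1 and CETP transgenes and have a human-like lipoprotein profile, and all of them, controls included, ate a Western-type diet with 15% cacao butter and 0.15% cholesterol. Poly(A) RNA of whole liver was sequenced in 8 mice of each of 7 groups. Control mice were gavaged with the vehicle, 5% carboxymethyl cellulose. Imatinib was given at 150 mg/kg in each of 2 gavages per day. Nilotinib was given at 10 or 30 mg/kg and ponatinib at 3 or 10 mg/kg, each in 1 gavage per day with a vehicle gavage beside it. After a run-in on the diet, the drug groups and controls were treated for 16 weeks. Their livers were taken after that treatment, so at an older age than on entry. The reference group drank 0.12% to 0.2% L-NAME, an inhibitor of nitric oxide synthase, beside the vehicle gavage, and the length of that treatment is not given in the sources used here.

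SREBP1c is made as a precursor in the membrane of the endoplasmic reticulum, is cut in the Golgi and then enters the nucleus, where it switches on the genes that turn acetyl-CoA into fatty acids. Insulin raises both its transcription, with the help of the nuclear receptor LXR, and its processing, while ChREBP, the product of Mlxipl, drives an overlapping set of genes when glucose is plentiful. In liver this programme supplies the fatty acids for triglycerides, very low density lipoproteins and membranes.

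The files hold from 5342379 to 97473341 gene reads for a mouse (median 7570238), and the lowest count of any member in any mouse was 115 reads, of Pnpla3. Values below are CPM, the reads of a gene per 1000000 gene reads after scaling by edgeR's TMM factors, and a gene is said to have passed the test when the Benjamini-Hochberg adjusted p of edgeR's quasi-likelihood test, over 14314 genes, was below 0.05. The share of uniquely aligned reads that lay outside annotated exons differed between groups. It was 7.97% ± 0.422 (SD, n = 8) in control livers and 10.0% ± 1.82 in imatinib livers. It was 9.75% ± 0.691 and 10.5% ± 1.38 at the lower and higher nilotinib dose, 8.53% ± 0.612 and 11.0% ± 1.99 with ponatinib 3 and 10 mg/kg, and 11.0% ± 2.45 with L-NAME. By a two-sided exact permutation test, adjusted over the 6 comparisons with control, p was 0.00131 for imatinib, 0.0466 for ponatinib 3 mg/kg and 0.000233 for the other 4 groups. In 5 mice it was over 12%, namely L-NAME mouse 10 (16.8%, which is also the mouse with 97473341 reads), ponatinib 10 mg/kg mouse 14 (15.2%), imatinib mouse 21 (14.1%) and nilotinib 30 mg/kg mice 31 and 44 (12.7% each). Whole liver was sequenced, so fewer cells of a type and less RNA per cell cannot be told apart in any value below.

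The summed level of 6 hepatocyte markers was between 63300 and 144000 CPM in every mouse, so the tissue label held. Of 6 adipocyte markers, Adipoq, Lep, Plin1 and Retn had no read in any control mouse, and in the 48 treated mice none of them reached more than 2.02 CPM. Cfd was at 0 in 6 of 8 control mice and reached at most 4.06 CPM, in an imatinib mouse. Fabp4, which cells other than adipocytes also express, was read in every mouse, at 5.22 to 17.0 CPM in control livers and up to 28.9 CPM in treated ones.

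Promoters of 9 of the 10 members were found in RefSeq (GRCm38.p6), in 13 windows that run from 250 bases before to 50 bases after a listed start, and none was found for Scd1. Windows of 150 bases before the start are shown for Fasn (chr11:120824548-120824697, minus strand) and Acly (chr11:100528001-100528150, minus strand), which moved together, for Pnpla3 (chr15:84167666-84167815, plus strand), which had the highest fold change, and for the start of Mlxipl inside its gene (chr5:135106741-135106890, plus strand), which holds the only sterol regulatory element match of the 13 windows. Capitals mark every match, on either strand, to the sterol regulatory element TCACNCCAC, the E-box CANNTG with its form CACGTG, the NF-Y box CCAAT and the Sp1 box GGGCGG.
Fasn: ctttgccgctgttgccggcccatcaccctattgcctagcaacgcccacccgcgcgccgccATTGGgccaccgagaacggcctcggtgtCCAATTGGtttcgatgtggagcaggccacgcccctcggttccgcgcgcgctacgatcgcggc
Acly: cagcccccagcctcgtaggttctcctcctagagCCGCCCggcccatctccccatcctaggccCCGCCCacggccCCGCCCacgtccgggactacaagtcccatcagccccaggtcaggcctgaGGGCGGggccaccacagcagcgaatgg
Pnpla3: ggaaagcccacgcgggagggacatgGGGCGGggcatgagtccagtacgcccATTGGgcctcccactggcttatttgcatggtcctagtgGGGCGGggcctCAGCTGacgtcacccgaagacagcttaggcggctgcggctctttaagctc
Mlxipl: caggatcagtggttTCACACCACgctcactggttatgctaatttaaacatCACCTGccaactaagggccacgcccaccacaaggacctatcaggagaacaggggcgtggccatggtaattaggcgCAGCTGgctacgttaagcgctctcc

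In Fasn, the E-box CAATTG lies within a pair of overlapping NF-Y boxes that start 62 and 59 bases before the start, and a further NF-Y box starts at 90 bases. Acly has 4 Sp1 boxes and no NF-Y box in the bases shown. Pnpla3 has 1 NF-Y box, 2 Sp1 boxes and 1 E-box there. In Mlxipl the match TCACACCAC starts 136 bases before the start. Over all 32851 RefSeq mouse promoter windows of the same length, 1.24% held the sterol regulatory element, 72.3% an E-box, 7.15% CACGTG, 37.4% an NF-Y box and 35.7% an Sp1 box. These are matches of letters, not sites shown to be used.

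In control livers, the median level per kilobase of exon ran over 3 orders of size. Scd1, the desaturase that makes oleate and palmitoleate, stood at 4850 CPM per kilobase. Srebf1, Fasn and Thrsp followed at 125, 121 and 116, and Acly and Mlxipl at 85.1 and 81.1. Me1 was at 45.6, Elovl6 at 25.7, Pnpla3 at 21.8 and Acaca, the lowest, at 3.92 CPM per kilobase. Scd1 alone took between 1.85% and 3.31% of all gene reads of a control liver.

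Against control, L-NAME lowered the most members. Fasn, Acly, Scd1, Elovl6 and Me1 fell, none rose, and 5 did not pass the test. The background is 11.8% of all tested genes called in that comparison, 6.24% as lower. Ponatinib 10 mg/kg split the set, with Scd1 lower and Pnpla3, Acaca and Mlxipl higher (13.1% of all genes called, 5.87% lower and 7.24% higher). Imatinib lowered Scd1 and Srebf1 (10.3% of all genes called, 4.58% lower). Both doses of nilotinib lowered Scd1 and Acly. At 10 mg/kg 1.41% of all genes were called, 0.943% lower, and at 30 mg/kg 5.77%, with 3.43% lower. With ponatinib 3 mg/kg no member passed the test, in edgeR, DESeq2 or limma voom, where 0.0419% of all genes were called in edgeR. No member had an unadjusted p below 0.05 either. The median log2 fold change over the 10 members was 0.48 for ponatinib 10 mg/kg and 0.09 for ponatinib 3 mg/kg. It was -0.60 for L-NAME, -0.36 for nilotinib 10 mg/kg, -0.26 for imatinib and -0.24 for nilotinib 30 mg/kg, while that of all tested genes lay between -0.0215 and 0.0295 in the same comparisons. All 6 comparisons use the same 8 control mice. Counts of livers that lay beyond every liver of the compared group are descriptions. The share of all genes that separate in this way was not counted.

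**Figure D1:**
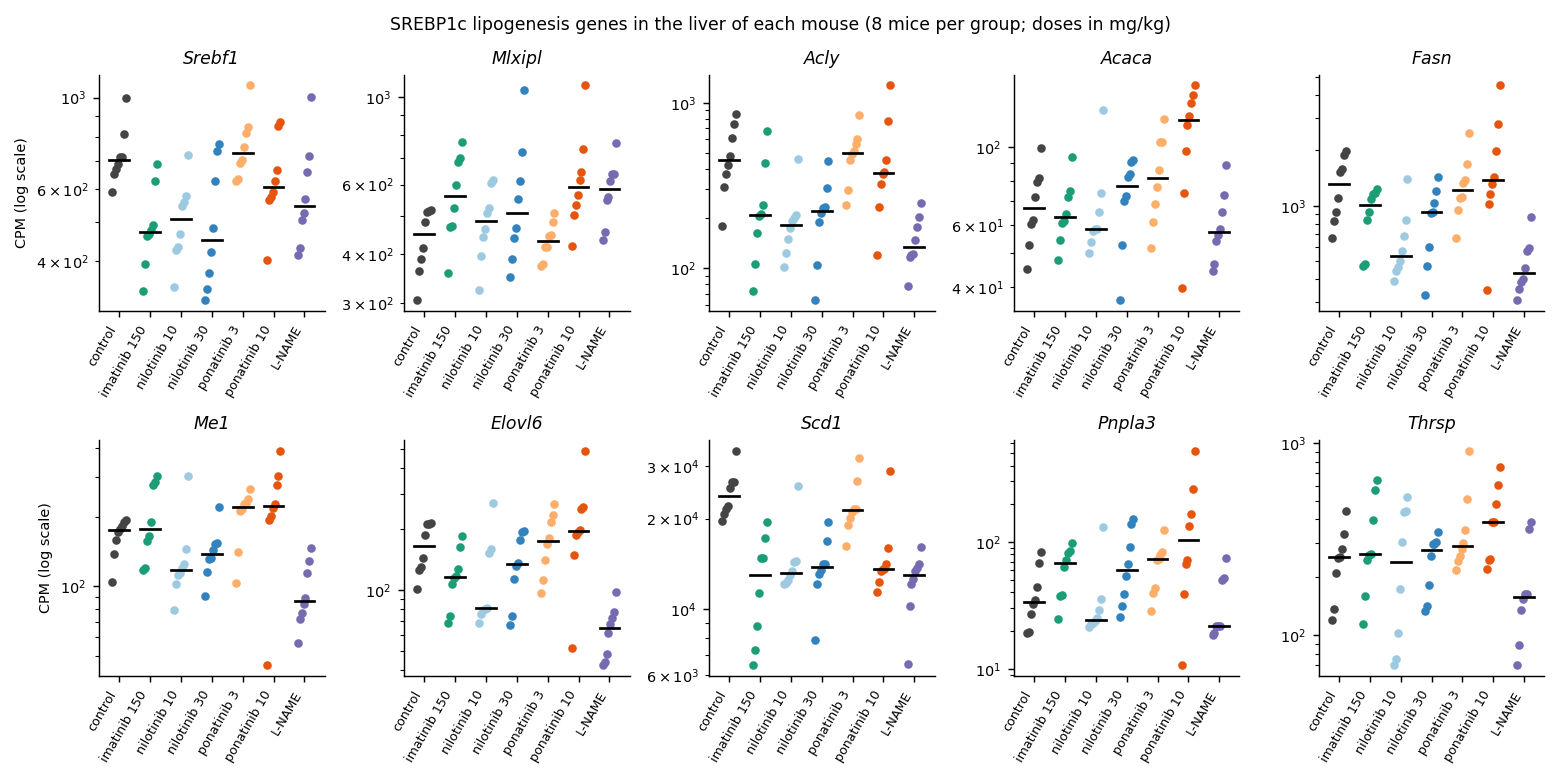
Level of each member in each liver, in CPM on a log scale, 1 panel per gene and 1 point per mouse, with a bar at the group's median (8 mice per group, doses in mg/kg). Scd1 lies below every control mouse in all mice given imatinib, nilotinib 30 mg/kg or L-NAME, while Pnpla3 spans 10.7 to 525 CPM among the mice given ponatinib 10 mg/kg.

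Srebf1 (ENSMUSG00000020538, chr11:60199089-60222581 on GRCm38, minus strand) encodes both SREBP1a and SREBP1c, and the counts pool reads from all of its starts. In control livers it ranged from 589.5 to 996 CPM with a median of 704. With imatinib it ranged from 339 to 690 CPM with a median of 471. Most imatinib livers, 6 of 8, lay below every control liver. The fall was 1.48-fold, with a log2 fold change of -0.57 (SE 0.17) and an adjusted p of 0.0232, and without control mouse 22 it was -0.49 with an adjusted p of 0.0539.

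With nilotinib, Srebf1 had medians of 506 CPM at 10 mg/kg, where 7 of 8 livers lay below all controls, and 451 CPM at 30 mg/kg, where 5 of 8 did. Neither comparison passed the test (log2 fold change -0.52 for both, 95% interval -0.86 to -0.18 and -0.86 to -0.17, adjusted p of 0.0993 and 0.0587). At 30 mg/kg the adjusted p dropped to between 0.0192 and 0.0453 without nilotinib mouse 31, 37 or 44. The intervals took in 0 for ponatinib 3 mg/kg (-0.27 to 0.42), ponatinib 10 mg/kg (-0.52 to 0.16) and L-NAME (-0.62 to 0.06), where Srebf1 had medians of 733, 607 and 546 CPM.

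Mlxipl (ENSMUSG00000005373, chr5:135089890-135138382, plus strand) encodes ChREBP. Control livers held 306 to 518 CPM, with a median of 449. Livers of mice given ponatinib 10 mg/kg held 419 to 1073 CPM, with a median of 592. Most of them, 6 of 8, lay above every control liver, and mouse 14 was the highest. The rise was 1.46-fold (log2 fold change 0.54, SE 0.17, adjusted p of 0.0217). Without ponatinib mouse 14 or control mouse 40 the log2 fold change was between 0.40 and 0.48, and the adjusted p between 0.059 and 0.112, and without the 5 mice over 12% outside exons it was 0.40 with an adjusted p of 0.126. With L-NAME, 6 of 8 livers also lay above all controls, at a median of 585 CPM, but the difference did not pass the test (0.41, 95% interval 0.08 to 0.75, adjusted p of 0.102). Imatinib and nilotinib 30 mg/kg gave the same estimate of 0.39 (95% interval 0.05 to 0.72, adjusted p of 0.134 and 0.175), and the intervals of nilotinib 10 mg/kg and ponatinib 3 mg/kg were -0.19 to 0.48 and -0.35 to 0.32.

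Acly (ENSMUSG00000020917, chr11:100476353-100528000, minus strand) encodes ATP citrate lyase, which splits citrate into the acetyl-CoA that lipogenesis starts from. Control livers ranged from 179 to 852 CPM, with a median of 449. L-NAME livers ranged from 78.5 to 246 CPM, with a median of 135. The groups overlapped only through the lowest control liver, mouse 28, and 6 of 8 L-NAME livers lay below it. The fall was 3.28-fold (log2 fold change -1.71, SE 0.37, adjusted p of 0.00101) and passed the test without any 1 of the 16 mice.

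With nilotinib, Acly ranged from 102 to 455.5 CPM at 10 mg/kg (median 183) and from 64.2 to 447 CPM at 30 mg/kg (median 222). In both groups a single liver, mouse 9 and mouse 44, stood near the control median. The falls were 2.46-fold (log2 fold change -1.30, SE 0.36, adjusted p of 0.0493) and 2.22-fold (-1.15, SE 0.36, adjusted p of 0.044). Both calls sat at the threshold. The first was lost, at an adjusted p between 0.0505 and 0.112, without control mouse 1, 12, 33, 40, 46 or 52 or nilotinib mouse 3, 19, 25, 30, 36, 43 or 53, and the second, at 0.0518 to 0.106, without control mouse 12, 33, 40, 46 or 52 or nilotinib mouse 4, 15, 20, 37, 49 or 54.

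In imatinib livers Acly spread widely, from 72.6 to 676.5 CPM with a median of 210. The estimate was -0.91 (95% interval -1.63 to -0.19, adjusted p of 0.0975), and without mouse 56, the highest, it was -1.28 with an adjusted p of 0.0135. With ponatinib 10 mg/kg the range was 120.5 to 1275 CPM around a median of 376, and the 95% interval of the log2 fold change ran from -0.72 to 0.70.

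Acaca (ENSMUSG00000020532, chr11:84129672-84401651, plus strand) encodes acetyl-CoA carboxylase 1, which makes the malonyl-CoA that the chain grows from. Control livers held 45.1 to 99.1 CPM (median 66.9) and livers of mice given ponatinib 10 mg/kg 39.8 to 149.6 CPM (median 119). In the ponatinib group 5 of 8 lay above all controls and 1, mouse 8, below all of them. The rise was 1.58-fold (log2 fold change 0.66, SE 0.20, adjusted p of 0.0186), and without ponatinib mouse 48 the adjusted p was 0.0502. In the other 5 comparisons with control Acaca did not pass the test, and its 95% intervals lay between -0.58 and 0.68.

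Fasn (ENSMUSG00000025153, chr11:120805846-120824547, minus strand) encodes fatty acid synthase, which builds palmitate. Control livers held 667.5 to 1986 CPM, with a median of 1321, and L-NAME livers 309 to 866.5 CPM, with a median of 431. All L-NAME livers but mouse 38 lay below every control liver. The fall was 2.67-fold (log2 fold change -1.42, SE 0.31, adjusted p of 0.00131).

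With nilotinib 10 mg/kg, Fasn had a median of 538 CPM, and 5 of 8 livers lay below all controls, while mouse 9 stood at 1399 CPM. The estimate was -0.99 (95% interval -1.61 to -0.37, adjusted p of 0.0765), and without mouse 9 it was -1.24 with an adjusted p of 0.0293. Nilotinib 30 mg/kg gave -0.60 (95% interval -1.21 to 0.01) and imatinib -0.51 (-1.12 to 0.10). With ponatinib 10 mg/kg Fasn ranged 12.9-fold between livers, from 351 CPM in mouse 8 to 4517 CPM in mouse 18, and the estimate of 0.47 did not pass the test (95% interval -0.14 to 1.08, adjusted p of 0.346).

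Me1 (ENSMUSG00000032418, chr9:86581371-86695953, minus strand) encodes malic enzyme, a source of the NADPH that fatty acid synthase consumes. Control livers held 105 to 194 CPM (median 176) and L-NAME livers 56.8 to 147 CPM (median 86.8). In the L-NAME group 5 of 8 lay below every control liver. The fall was 1.72-fold (log2 fold change -0.78, SE 0.24, adjusted p of 0.0255), and the adjusted p rose to between 0.0548 and 0.0638 without L-NAME mouse 5 or 10, and was 0.058 without the 5 mice over 12% outside exons. With ponatinib 10 mg/kg, 7 of 8 livers lay above all controls, at 193.9 CPM or more against at most 193.7 CPM, and mouse 8 lay below them at 45.4 CPM. The estimate of 0.49 did not pass the test (95% interval 0.01 to 0.98, adjusted p of 0.184), whereas without mouse 8 it was 0.65 with an adjusted p of 0.0337.

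**Figure D2:**
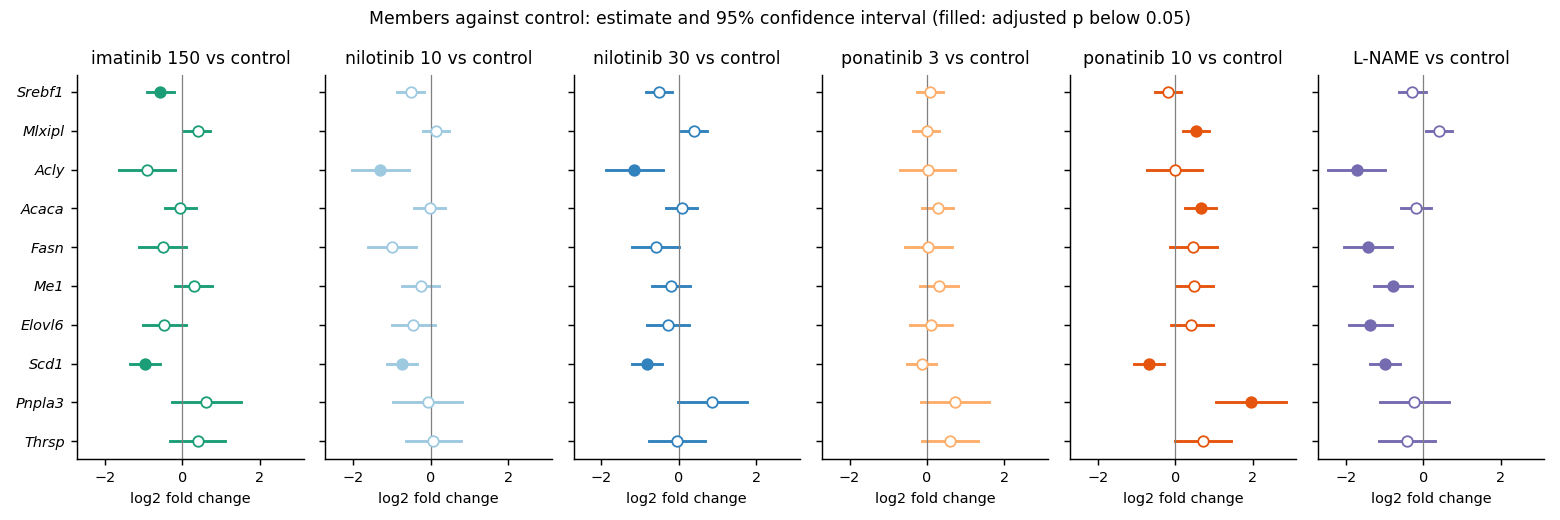
Log2 fold change of each member in each treated group against control (point) with its 95% confidence interval (line), and filled points where the adjusted p was below 0.05. Scd1 is filled on the left in 5 of 6 panels, the L-NAME panel has 5 filled points, all below 0, and the ponatinib 3 mg/kg panel has none.

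Scd1 (ENSMUSG00000037071, chr19:44394455-44407879, minus strand) encodes stearoyl-CoA desaturase 1. It was the member that fell in the most groups, 5 of 6. Control livers held 19610 to 33700 CPM, with a median of 23700. Imatinib livers held 6489 to 19510 CPM, with a median of 13010, and L-NAME livers 6536 to 16030 CPM, with a median of 13000. In both groups all 8 livers lay below every control liver. The falls were 1.96-fold (log2 fold change -0.97, SE 0.19, adjusted p of 0.000453) and 1.99-fold (-0.99, SE 0.19, adjusted p of 0.000319).

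Nilotinib lowered Scd1 to medians of 13190 CPM at 10 mg/kg and 13800 CPM at 30 mg/kg. At 30 mg/kg all 8 livers, from 7887 to 19530 CPM, lay below the controls, and at 10 mg/kg mouse 9, at 25670 CPM, was the exception. The log2 fold changes were -0.74 (SE 0.19, adjusted p of 0.0307) and -0.82 (SE 0.19, adjusted p of 0.00502). The call at 10 mg/kg was lost, at an adjusted p between 0.0566 and 0.0981, without nilotinib mouse 3, 36 or 43 or control mouse 46 or 52.

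With ponatinib 10 mg/kg, Scd1 had a median of 13590 CPM, and 7 of 8 livers lay between 11400 and 15900 CPM, below all controls, while mouse 18 stood at 28820 CPM. The fall was 1.59-fold (log2 fold change -0.67, SE 0.19, adjusted p of 0.0113). With ponatinib 3 mg/kg the median was 21290 CPM and the 95% interval -0.52 to 0.24. Scd1 has close paralogs (Scd2 among them), and reads that aligned to several places were counted on no gene, so its absolute level is a lower bound.

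Elovl6 (ENSMUSG00000041220, chr3:129532355-129638495, plus strand) encodes the elongase that turns palmitate into stearate. Control livers held 101.5 to 214.5 CPM (median 165.5) and L-NAME livers 42.4 to 97.2 CPM (median 64.7), and the groups did not overlap. The fall was 2.60-fold (log2 fold change -1.38, SE 0.28, adjusted p of 0.000564). The estimates for imatinib and nilotinib 10 mg/kg were -0.47 and -0.45 (95% intervals -1.01 to 0.08 and -0.99 to 0.10), and in the nilotinib group 5 of 8 livers lay below all controls and mouse 9 above them. Nilotinib 30 mg/kg, ponatinib 3 mg/kg and ponatinib 10 mg/kg had intervals of -0.82 to 0.26, -0.45 to 0.64 and -0.12 to 0.97.

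Pnpla3 (ENSMUSG00000041653, chr15:84167837-84187236, plus strand) encodes a lipid droplet protein, and its human counterpart is known for a variant linked to fatty liver. Control livers held 19.2 to 83.6 CPM, with a median of 33.7. Livers of mice given ponatinib 10 mg/kg held 10.7 to 525 CPM, with a median of 103. Mouse 14 was the highest and mouse 8 the lowest, 49.2-fold apart, and 4 of 8 lay above all controls. The rise was 3.87-fold (log2 fold change 1.95, SE 0.45, adjusted p of 0.00206). It passed the test without any 1 of the 16 mice, and without the 5 mice with over 12% of reads outside exons.

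The other groups did not pass the test for Pnpla3. Nilotinib 30 mg/kg gave 0.86 (95% interval -0.03 to 1.75), ponatinib 3 mg/kg 0.72 (-0.16 to 1.61) and imatinib 0.61 (-0.28 to 1.5). The intervals of nilotinib 10 mg/kg and L-NAME were -0.97 to 0.80 and -1.13 to 0.65. Thrsp (ENSMUSG00000035686, chr7:97412938-97417730, minus strand), the thyroid hormone responsive Spot 14 protein of lipogenic tissue, passed the test in no comparison. Its group medians lay between 159 CPM with L-NAME and 389 CPM with ponatinib 10 mg/kg, against 254 CPM in control livers. Its estimates against control lay between -0.42 with L-NAME (95% interval -1.14 to 0.30) and 0.71 with ponatinib 10 mg/kg (-0.01 to 1.43).

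The mean share of reads outside exons was higher than in control livers in every treated group, so the share and treatment cannot be told apart. In control livers it reached at most 8.67%. It was at least 9.14% and 9.41% with nilotinib 10 and 30 mg/kg, 8.89% with ponatinib 10 mg/kg and 8.81% with L-NAME. These groups did not overlap with control in the share. With that share as a covariate in the same fit, imatinib had 2 members called, where 4.56% of all genes were called, and L-NAME had 4, where 1.8% were, Me1 being lost at an adjusted p of 0.0754. Ponatinib 10 mg/kg had no member called, where 2.58% of all genes were. The nilotinib groups had none either, where 0.0908% of all genes were called at 10 mg/kg and 0.671% at 30 mg/kg, nor did ponatinib 3 mg/kg, where the share was 0.0419%. Under the covariate, Scd1 had log2 fold changes of -0.65 and -0.69 with nilotinib 10 and 30 mg/kg and -0.53 with ponatinib 10 mg/kg (adjusted p of 0.167, 0.0982 and 0.171), Acly -1.25 and -1.08 with nilotinib (0.168 and 0.239), and Pnpla3 1.08, Acaca 0.51 and Mlxipl 0.29 with ponatinib 10 mg/kg (0.274, 0.25 and 0.488). Across the 56 mice, after each group's mean was subtracted, Pearson's r between a member and the share ran from -0.197 for Scd1 to 0.321 for Mlxipl, and none of the 10 had an adjusted permutation p below 0.05. By Spearman's rho, Thrsp did (rho 0.404, permutation p of 0.0026, adjusted 0.026, and r 0.29 with p of 0.0345, or 0.368 without the 2 most distant mice).

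Markers of other cell types were read beside the members. Of 6 Kupffer cell markers, summed to 650 to 1320 CPM in control livers, 2 fell with imatinib (345 to 762 CPM), 2 rose with ponatinib 10 mg/kg (346 to 1960 CPM) and 1 rose with nilotinib 30 mg/kg and with L-NAME (745 to 1350 and 635 to 1510 CPM). Of 5 leukocyte markers 1 fell with imatinib (18.6 to 26.6 CPM, against 23.4 to 46.0 CPM in control livers). Of the 6 hepatocyte markers, 3 fell and 1 rose with ponatinib 10 mg/kg, 3 fell with L-NAME, 2 and 1 fell with nilotinib 30 and 10 mg/kg, and 1 fell and 1 rose with imatinib. Their summed level overlapped the control range of 76500 to 138000 CPM in every group. Summed stellate cell, endothelial and cholangiocyte markers ran over 372 to 635, 130 to 396 and 56.7 to 201 CPM in control livers, and pancreatic acinar markers over 4.1 to 11.5 CPM. None of the tested markers of these types passed the test against control in any group. The median endothelial sum was 198 CPM in control livers, 278 and 291 CPM with nilotinib 10 and 30 mg/kg and 155 CPM with ponatinib 3 mg/kg. The counts of markers stand beside the shares of all genes called that are given above for each comparison. The part of these markers in the members' values was not tested.

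Ponatinib and nilotinib were both given at 10 mg/kg once daily, the only dose that 2 drugs shared. Nilotinib is built on imatinib's scaffold, and ponatinib has an alkyne linker that the other drugs lack. The match is in mg/kg only, as the paper reports a larger plasma exposure for nilotinib than for ponatinib at this dose. At 10 mg/kg all 10 members had higher estimates with ponatinib, and 3, Fasn, Acly and Pnpla3, passed the test (2.06% of all genes called, 1.03% higher). The median log2 fold change was 0.72 over the members and 0.00665 over all tested genes. The share of all genes with a higher estimate was not counted. Most members were correlated across mice, so their signs are not separate results. Fasn had medians of 1380 and 538 CPM and was 2.75-fold higher (log2 fold change 1.46, SE 0.31, adjusted p of 0.00617), with 4 of 8 ponatinib livers above every nilotinib liver and mouse 8 below them. Pnpla3 had medians of 103 and 24.5 CPM and was 4.11-fold higher (2.04, SE 0.46, adjusted p of 0.00977). Acly had medians of 376 and 183 CPM and was 2.45-fold higher (1.29, SE 0.36, adjusted p of 0.0406).

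The call of Fasn passed without any 1 of the 16 mice, with estimates of 1.12 to 1.71, while those of Pnpla3 and Acly did not. With only the 2 groups compared, Fasn, Pnpla3 and Acly did not pass (adjusted p of 0.0785, 0.0984 and 0.112). Without the 5 mice over 12% outside exons Pnpla3 and Acly had adjusted p of 0.0738 and 0.094, and in limma voom 0.0636 and 0.0874. Without ponatinib mouse 14 the adjusted p of Pnpla3 was 0.0643, and the call of Acly was lost, at 0.053 to 0.13, without ponatinib mouse 14, 18 or 48 or nilotinib mouse 3, 19, 25, 30, 36 or 43. Without nilotinib mouse 9 or ponatinib mouse 8, in contrast, Acaca, Elovl6 and Me1 also passed the test, at adjusted p of 0.00629 to 0.0465 for Acaca, where leaving out ponatinib mouse 2 or nilotinib mouse 53 also gave the call, 0.00943 to 0.018 for Elovl6 and 0.00807 to 0.0127 for Me1. With all mice their estimates were 0.68 (95% interval 0.28 to 1.08, adjusted p of 0.0511), 0.87 (0.32 to 1.42, 0.0707) and 0.76 (0.27 to 1.24, 0.078). Scd1 was the member closest to no difference, at 0.07 with an interval of -0.31 to 0.44. The other intervals were 0.00 to 0.68 for Srebf1, 0.06 to 0.73 for Mlxipl and -0.08 to 1.36 for Thrsp.

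**Figure D3:**
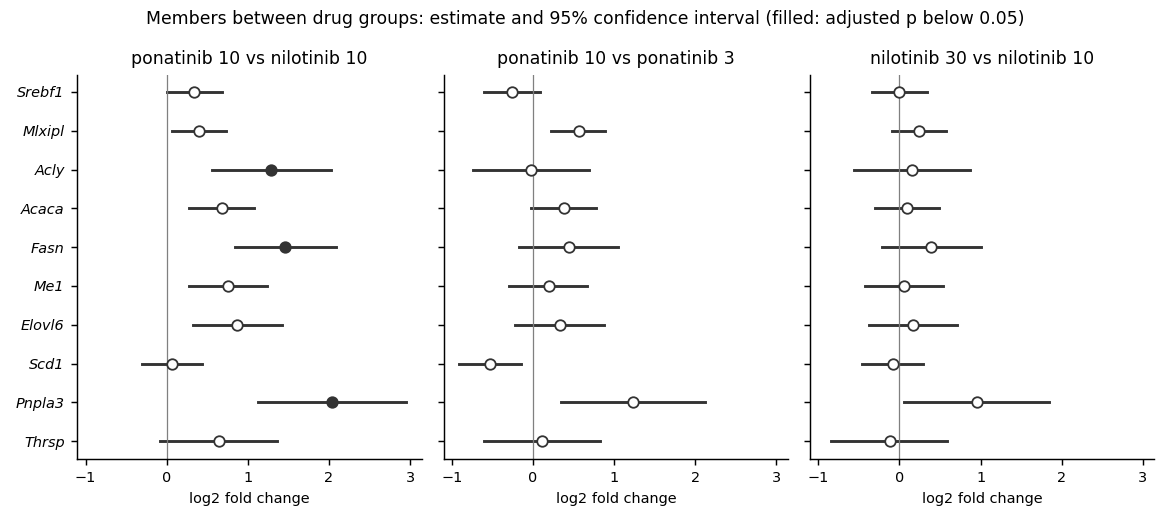
Log2 fold change of each member between drug groups (point) with its 95% confidence interval (line), filled where the adjusted p was below 0.05, for ponatinib against nilotinib at 10 mg/kg and for the higher against the lower dose of each drug. Fasn, Acly and Pnpla3 are filled in the first panel, at 1.46, 1.29 and 2.04, and no point is filled in the other 2 panels.

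Between the doses of 1 drug no member passed the test. For nilotinib 30 against 10 mg/kg no gene at all was called (0.0% in edgeR), and no member in DESeq2 or limma voom. A single member, Pnpla3, had an unadjusted p below 0.05 (log2 fold change 0.95, 95% interval 0.05 to 1.84, adjusted p of 0.86). For ponatinib 10 against 3 mg/kg 1.39% of all genes were called, at an adjusted p below 0.05. The members with an unadjusted p below 0.05 were 3, namely Mlxipl (0.56, 95% interval 0.22 to 0.89, adjusted p of 0.0753), Scd1 (-0.53, -0.91 to -0.15, 0.141) and Pnpla3 (1.23, 0.34 to 2.12, 0.152). DESeq2 called Mlxipl, at an adjusted p of 0.0228. Without ponatinib mouse 18, Scd1 and Mlxipl passed the test (adjusted p of 0.0128 for Scd1), and without mouse 8 Mlxipl alone did, the 2 adjusted p of Mlxipl lying between 0.0322 and 0.0452.

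The remaining pairs of drugs differed in dose. Estimates were higher with ponatinib 10 mg/kg than with nilotinib 30 mg/kg for all 10 members, and none passed the test (1.88% of all genes called). At an unadjusted p below 0.05 there were 7 members. The share of all genes at that unadjusted cut-off, or with estimates in the same direction, was not counted for any pair of groups. Fasn was nearest, at 1.07 with an adjusted p of 0.0502, and DESeq2 called it at 0.0403. In edgeR it passed without ponatinib mouse 2, 8, 24 or 42 or nilotinib mouse 31 or 44 (0.0118 to 0.0451). Without ponatinib mouse 8, Acaca and Me1 also passed (0.0242 and 0.0208), and without mouse 8 or nilotinib mouse 44, Acly (0.0331 to 0.0356). Imatinib at 150 mg/kg in each of 2 daily gavages had lower estimates than ponatinib 10 mg/kg for all 10, and none passed (1.08% of all genes called). At an unadjusted p below 0.05 there were 6 members. Acaca was nearest, at -0.72 with an adjusted p of 0.055, and DESeq2 called it at 0.0217. Without ponatinib mouse 2 or 8 or imatinib mouse 21 Acaca passed (0.0094 to 0.0412), and without ponatinib mouse 8 Fasn and Elovl6 did too (0.0335 and 0.0264). Between imatinib and nilotinib 30 mg/kg no member passed in edgeR, DESeq2 or limma voom (3.59% of all genes called), 1 member had an unadjusted p below 0.05, and the estimates lay between -0.25 and 0.50.

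Within a group, the livers that were high in 1 member tended to be high in most. Nilotinib 10 mg/kg mouse 9 was the highest of its 8 livers in all 10 members. L-NAME mouse 38 was highest in 8 members, and ponatinib 10 mg/kg mouse 18 and nilotinib 30 mg/kg mouse 44 in 7 each. At the other end, ponatinib 10 mg/kg mouse 8 was lowest in 8 members, and control mouse 28 and nilotinib 30 mg/kg mouse 15 in 6 each. Mouse 8 and mouse 18 had 8.89% and 9.03% of reads outside exons, at the low end of their group, and mouse 9 had 11.0%, the top of its own.

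The mean of the members' log2 CPM was 8.57 ± 0.35 (SD, n = 8) in control livers and varied most with ponatinib 10 mg/kg, 8.86 ± 0.72, where it ran from 7.48 to 9.77. It was 8.76 ± 0.36 for ponatinib 3 mg/kg, 8.35 ± 0.35 for imatinib, 8.30 ± 0.47 for nilotinib 30 mg/kg, 8.08 ± 0.50 for nilotinib 10 mg/kg and 7.86 ± 0.39 for L-NAME. This mean is a description and was not tested.

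**Figure D4:**
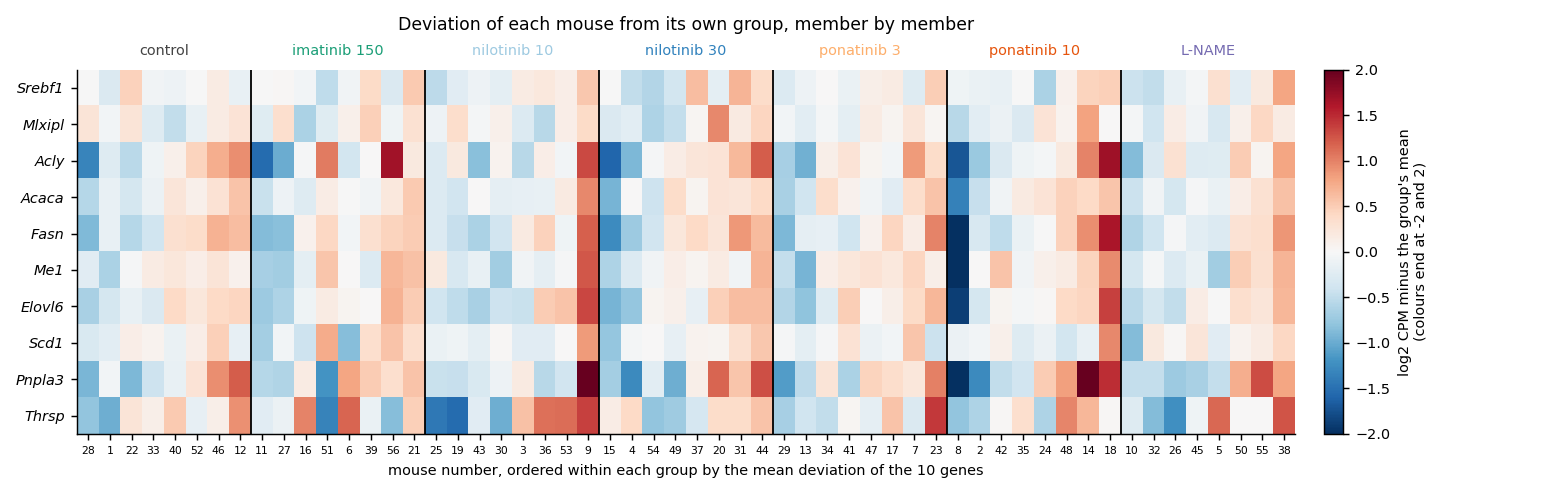
Log2 CPM of each member in each of the 56 livers minus the mean of that mouse's own group, with colours ending at -2 and 2. Mice are ordered within each group by their mean deviation, so whole columns of 1 colour, such as mouse 9 of nilotinib 10 mg/kg and mouse 8 of ponatinib 10 mg/kg, show livers in which most members were high or low together.

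After each group's mean was subtracted, 44 of the 45 pairs of members were positively correlated across the 56 mice, with a median Pearson's r of 0.494. In 36 pairs the permutation p (100000 permutations within groups, adjusted over the 45 pairs) was below 0.05. No such count was made for other sets of genes in these livers. Fasn and Elovl6 were the tightest pair (r 0.882, rho 0.831, r 0.831 without the 2 most distant mice, and 0.626 to 0.966 within the 7 groups). Fasn and Acly followed (r 0.857, rho 0.83, r 0.824 without the 2 most distant mice). For both pairs, r and rho each had a permutation p of 1e-05, the smallest that the permutations can give.

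The median r with the other 9 members was 0.356 for Srebf1 and 0.34 for Mlxipl, against 0.76 for Acaca, 0.754 for Fasn and 0.743 for Elovl6. Srebf1 and Scd1 had r 0.244 and rho 0.132 (permutation p of 0.0939 for r, adjusted 0.101). The 1 negative pair was Scd1 and Thrsp (r -0.0918, rho -0.115, permutation p of 0.539 for r). All members of a mouse come from 1 library, so these values share its depth and scaling. Pearson's r with the log10 number of gene reads ran from -0.269 for Scd1 to -0.0411 for Mlxipl, and none of the 10 had an adjusted permutation p below 0.05.

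The genes outside the set most like the mean of the members over these 56 mice were Pklr (r 0.842), the liver pyruvate kinase, Chrna4 (0.758), Insig1 (0.745), Acss2 (0.725), Aqp8 (0.721) and Sc5d (0.72). The genes at the other end were Grn (r -0.702), Hp (-0.629) and Ubb (-0.614). These are descriptions with no test.

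The neighbours of lipogenesis were read from 8 lists of genes. Their counts stand beside the shares of all tested genes called against control. These were 10.3% for imatinib, 1.41% and 5.77% for nilotinib 10 and 30 mg/kg, 13.1% for ponatinib 10 mg/kg and 11.8% for L-NAME. Some lists lay below that share, such as 1 of 18 SREBP regulators with imatinib and 2 of 18 oxidation genes with ponatinib 10 mg/kg. The 2 of 14 lipid droplet genes called with imatinib were near it. No list was tested as a set. Among 14 genes of substrate and NADPH supply, 5 fell with L-NAME, none rose and 9 did not pass (median log2 fold change -0.38). The leading 4 were Pcx (pyruvate carboxylase, -0.54, adjusted p of 0.000752), Pklr (-0.87, 0.00207), Idh1 (-0.34, 0.0103) and Slc2a2 (the glucose transporter GLUT2, -0.48, 0.0116). Imatinib lowered 3, Pklr (-0.63), Slc2a2 (-0.42) and Pcx (-0.34), and nilotinib 30 mg/kg lowered 3, Slc2a2 (-0.62), Pklr (-0.64) and Pcx (-0.57). Nilotinib 10 mg/kg lowered Pcx alone (-0.47, adjusted p of 0.021). With ponatinib 10 mg/kg, Pcx fell (-0.51, adjusted p of 0.00145), and Slc25a1, the mitochondrial citrate carrier (0.51, 0.00205), and Khk, ketohexokinase (0.51, 0.00872), rose. Against nilotinib at the same dose ponatinib had 3 of these genes higher and none lower, Slc25a1 (0.53), Pklr (0.78) and Acss2 (1.17).

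Of 18 genes that process SREBP or regulate Srebf1, L-NAME lowered 4 and raised 1. Srebf2 (-0.62, adjusted p of 0.00439), Mbtps1, the site 1 protease (-0.41, 0.0103), and Irs2, an insulin receptor substrate (-1.26, 0.0198), were among those that fell, and Usf1 rose (0.73, 0.0007). Nilotinib 30 mg/kg also lowered 4 and raised 1, with Rxra, the partner of LXR, at -0.60 (adjusted p of 0.00203), Irs1 at -0.60, Srebf2 at -0.49 and Irs2 at -1.20. Nilotinib 10 mg/kg lowered Srebf2 (-0.68, adjusted p of 0.0148) and imatinib raised Usf2 (0.52, 0.0187). At 10 mg/kg ponatinib raised 3, Usf1 (0.60), Usf2 (0.51) and Insig1, which holds SREBP in the endoplasmic reticulum and is itself an SREBP target (0.69, adjusted p of 0.0213), and lowered Mbtps1 (-0.33, 0.0414). Insig1 was also 1.10 higher on the log2 scale than with nilotinib 10 mg/kg (adjusted p of 0.00236).

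Among 18 other genes of elongation, desaturation and activation, L-NAME lowered 5 and raised none, with Fads2 (delta-6 desaturase) at -0.91 (adjusted p of 0.00181), Acsl4 at -0.71 and Acacb, acetyl-CoA carboxylase 2, at -0.95. Nilotinib 30 mg/kg lowered Fads2 (-0.97, adjusted p of 0.00226) and Acacb (-0.78, 0.0346). Imatinib lowered Scd2 (-1.22, adjusted p of 0.000114) and Acsl4 (-0.53) and raised Acot1 (1.84, 0.000168) and Tecr (0.50). Ponatinib 10 mg/kg lowered Scd2 (-0.79, adjusted p of 0.00825), Acsl4 (-0.51) and Fads2 (-0.61) and raised Tecr (0.64, 0.000511). Scd2, the paralog of Scd1, stood at 44.6 ± 14.5 CPM (SD, n = 8) in control livers.

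Of 12 tested genes of triglyceride synthesis, L-NAME lowered Gpam, the mitochondrial glycerol-3-phosphate acyltransferase (-1.72, adjusted p of 0.000378), and Lpin1 (-0.73, 0.0129). Nilotinib 30 mg/kg lowered 3, Gpat4 (-0.47), Gpam (-1.25, adjusted p of 0.0136) and Lpin1 (-0.64). Gpat4 alone fell with nilotinib 10 mg/kg (-0.39, adjusted p of 0.0456) and with ponatinib 10 mg/kg (-0.64, 6.21e-05). Lpin1 was higher with ponatinib than with nilotinib at 10 mg/kg (0.94, adjusted p of 0.00849). Of 14 tested genes of the lipid droplet and lipolysis, G0s2 (0.93, adjusted p of 0.00917) and Plin2 (0.41, 0.0287) rose with imatinib.

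Of 21 genes of the SREBP2 list, imatinib raised 5 and lowered none, with Fdft1 (0.77, adjusted p of 0.00287), Cyp51 (0.82), Tm7sf2 (0.69) and Mvd (1.10) at the head, while Scd1 and Srebf1 fell in the same livers. The 10 mg/kg dose of ponatinib raised 12 and lowered 1, with Fdft1 (0.85, adjusted p of 0.000764), Mvd (1.61, 0.00109), Lss (1.00, 0.00251) and Tm7sf2 (0.90, 0.00297) leading the rises. L-NAME raised none and lowered 5, among them Hsd17b7 (-0.68, adjusted p of 0.00618) and Sqle (-1.32, 0.0216). Nilotinib raised none and lowered 1 at 10 mg/kg and 2 at 30 mg/kg. At 10 mg/kg, 17 of the 21 were higher with ponatinib than with nilotinib and none lower, with Lss (1.37) and Sqle (2.42) both at an adjusted p of 0.000714.

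Of 8 LXR targets besides Srebf1, imatinib lowered Abcg1 (-1.48, adjusted p of 5.22e-05) and Abca1 (-0.48, 0.01), the cholesterol exporters. With ponatinib 10 mg/kg, 3 fell, Abcg1 (-1.33, adjusted p of 0.000184), Abcg8 (-0.66, 0.00238) and Abca1 (-0.43, 0.0178). Of 18 tested genes of PPAR-alpha and fatty acid oxidation, imatinib raised 9 and lowered 1. Cyp4a10 (1.17, adjusted p of 7.29e-05), Vnn1 (1.09), Acadvl (0.38) and Hadhb (0.57) led the rises, and Ppara itself fell (-0.80, adjusted p of 0.0479). L-NAME lowered 3 (Hadha -0.46, Ppara -0.89 and Ehhadh -0.51), nilotinib 30 mg/kg 3 (Ppara -1.61, Cpt1a -0.63 and Hadha -0.32) and ponatinib 10 mg/kg 2 (Ehhadh -0.64 and Hadha -0.35), and none rose in these groups.

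**Figure D5:**
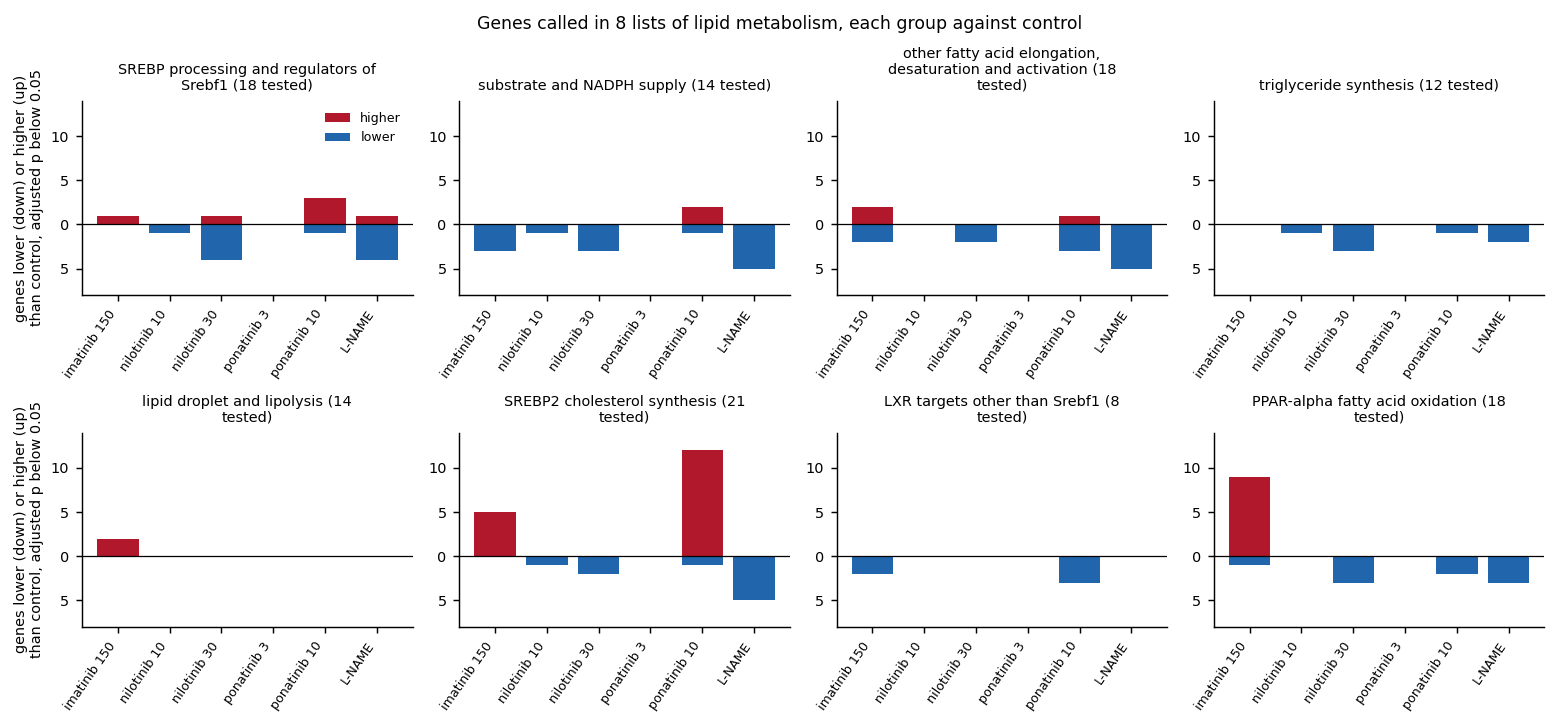
Number of genes of each of 8 lists that were higher (bars up) or lower (bars down) than control at an adjusted p below 0.05, for the 6 treated groups, with the number of genes tested in each title. L-NAME lowered 5 genes and raised none in the lists of substrate supply, of elongation and desaturation and of SREBP2, while ponatinib 10 mg/kg raised 12 genes of the SREBP2 list.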

How the data were processed

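Liver RNA of 56 female mice, 8 in each of 7 groups, was sequenced as poly(A) libraries on an Illumina NextSeq 500. Per the labels and the submitters' processing notes, reads were aligned to GRCm38 with TopHat2 2.0.14 and Bowtie2 2.1.0, and SAMtools 0.1.18 and HTSeq 0.6.1p1 were used. Whether strand was used is not given in the sources used here. The authors deposited raw counts of reads per gene, with no normalization, and reads aligned to several places were counted on no gene. Rows that name no gene were kept out of library sizes, and reads outside annotated exons (introns included) are given as a percent of uniquely aligned reads. Of 45513 Ensembl identifiers, 44671 matched a symbol in GENCODE vM21 (842 did not). The release the authors counted with is not given in the sources used here, so values per kilobase rest on vM21 exons.

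All 56 mice were fitted together by edgeR 4.0.16 (R 4.3.3; filterByExpr with a minimum count of 10, TMM factors 0.91 to 1.16, quasi-likelihood test), after a check on simulated data. Intervals are at 95%. Replicates are separate mice. The mouse numbers are unique over the groups, so no mice are paired. The fitted spread takes in both counting error, which is larger at lower depth, and the spread between mice. The alternatives were DESeq2 size factors within edgeR, DESeq2 1.42.0, limma 3.58.1 voom with and without sample weights, no filter, an unadjusted p below 0.01 (the study's cut-off), an adjusted p below 0.01, only the 2 groups compared, the 48 mice without L-NAME, reads outside exons as a covariate and each mouse left out. Leaving out the 5 mice over 12% was added after seeing the data. The members and gene lists were chosen with earlier results of these data known. Up to 4 genes of each list were named per comparison, those with the smallest adjusted p below 0.05. Ppara with imatinib, the 1 gene of its list that fell, was named after its values were seen. Some genes of the SREBP2 list are not reported here by name.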

Additional observations from a re-analysis of the deposited data

Results flagged for a closer look

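In 10 of the 70 combinations of a member and a group, 1 liver stood apart from the other 7. Its gap to the nearest, as a share of the group's range, was over Dixon's 95% critical value. About 3.5 would be over it by chance if values were normally distributed. The ratio was taken on CPM without logs, so 3.5 need not hold here, and all 10 values were the highest of their group. Nilotinib 10 mg/kg mouse 9 accounts for 7 of them, as the highest of its group. It had 1399 CPM of Fasn (next 842), 127 of Acaca (next 74.0), 455.5 of Acly (next 209), 25670 of Scd1 (next 14450), 270.5 of Elovl6 (next 160.0), 301.5 of Me1 (next 146) and 130.3 of Pnpla3 (next 35.5). Ponatinib 10 mg/kg mouse 18 stood above its group in Scd1, at 28820 CPM (next 15900), and in Elovl6, at 489 CPM (next 256). Ponatinib 3 mg/kg mouse 23 stood above its group in Thrsp, at 913 CPM (next 509). The members of 1 liver are not independent, so these are 3 livers rather than 10 separate events. The cause was not tested.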

How the results depend on the processing

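No paired analysis was possible because the mouse numbers are unique over the groups. With an unadjusted p below 0.01, 4 members were called with nilotinib 10 mg/kg, 6 for ponatinib against nilotinib at 10 mg/kg, 4 for ponatinib 10 against nilotinib 30 mg/kg, 4 for imatinib against ponatinib 10 mg/kg and 3 for ponatinib 10 against 3 mg/kg. With an adjusted p below 0.01 it was 1 each for imatinib, nilotinib 30 mg/kg and ponatinib 10 mg/kg, and 0 for nilotinib 10 mg/kg. The shares of all genes at these cut-offs were not counted. DESeq2 and DESeq2 size factors in edgeR each called 1 for ponatinib 10 against nilotinib 30 mg/kg and 1 for imatinib against ponatinib 10 mg/kg, and DESeq2 also 1 for ponatinib 10 against 3 mg/kg. Voom called 1 for ponatinib against nilotinib at 10 mg/kg. With sample weights voom called 4 for imatinib (3 lower, 1 higher) and 4, all lower, for nilotinib 10 mg/kg. For ponatinib 10 against 3 mg/kg it then called 2 (1 lower, 1 higher). With only the 2 groups compared it was 4 for nilotinib 10 mg/kg and 0 for ponatinib against nilotinib at 10 mg/kg, and without the L-NAME mice 1 for each nilotinib dose. With reads outside exons as a covariate it was 0 for both nilotinib doses and for ponatinib 10 mg/kg. Without the 5 mice over 12%, chosen after seeing the data, 1 was called for ponatinib 10 mg/kg against each nilotinib dose. Apart from the fit with the covariate, the shares of all genes called were not counted for these settings or with 1 mouse left out. The cause of these differences was not tested.

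With 1 mouse left out, the count ran from 1 to 3 for imatinib, 0 to 3 and 1 to 3 for nilotinib 10 and 30 mg/kg, 3 to 5 for ponatinib 10 mg/kg and 4 to 5 for L-NAME, from 1 to 6 and 0 to 4 for ponatinib 10 mg/kg against nilotinib 10 and 30 mg/kg, 0 to 2 against ponatinib 3 mg/kg and 0 to 3 for imatinib against ponatinib 10 mg/kg, and stayed at 0 for the other 3. Dropping the filter on low counts left every count of members as it was. The member estimates of at least 0.4 on the log2 scale, or called, reversed sign under no alternative. With 1 mouse left out, 867 such estimates stayed on their side of the threshold, 32 gained a call and 45 lost one, and under the other settings the numbers were 573, 38 and 31. Taken as a share of all reads in the table, reads outside exons were 0.356 percentage points higher with ponatinib 3 mg/kg than in control livers and no longer passed the test, and the other 5 groups kept their calls. Without TMM scaling the difference of the members' mean from control moved by less than 1 SD in each group.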
